A study of Mus musculus with 12 samples.

Results

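The genes described here are 10 that make fatty acids, lengthen them and put double bonds into them, out of the 24499 gene symbols counted in the series. They were chosen by name, with earlier results of these data known. Srebf1 is the transcription factor gene of the pathway. Acly, Acaca and Fasn serve synthesis, Scd1, Scd2, Fads1 and Fads2 desaturation, and Elovl5 and Elovl6 elongation. All 10 have a row in the count table, and 9 passed a filter on low counts and were tested, Fads2 being the exception. The cells were lymph node cells enriched on CD11c beads, taken on day 9 after E0771-cOC tumours, derived from a mammary cancer line of the mouse, had been injected, from the nodes draining them. There were 6 libraries from APOE-KO mice, which lack apolipoprotein E, and 6 libraries from C57BL6 wildtype mice, and the mice of both genotypes carried the tumour. The labels do not describe the knockout allele, the age and sex of the mice or any pooling of nodes. They also do not tie each library to its own animal, so a p-value here covers the spread among these libraries, and that spread may be technical.

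Fatty acid synthesis starts in the cytosol. ATP citrate lyase (Acly) splits citrate into acetyl-CoA, acetyl-CoA carboxylase (Acaca) turns acetyl-CoA into malonyl-CoA, and fatty acid synthase (Fasn) joins these units into palmitate. Elongases of the endoplasmic reticulum lengthen the chain, Elovl6 mainly on saturated and monounsaturated chains and Elovl5 on polyunsaturated ones. Stearoyl-CoA desaturases (Scd1, Scd2) place the double bond of oleate and palmitoleate, and the front-end desaturases Fads2 and Fads1 act in sequence on essential fatty acids on the way to arachidonate. SREBP1, the product of Srebf1, activates most of these genes, and the sterol-sensing liver X receptors (LXR) activate Srebf1, the Scd genes and Fasn when oxysterols or other sterol ligands accumulate. In macrophages and dendritic cells the pathway feeds membranes and sets their share of unsaturated fat.

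Library totals ran from 3175135 to 4497466 counts in APOE-KO and from 2381477 to 4898360 in wildtype. At these totals 3 counts in 1 library stand for 0.612 to 1.26 counts per 1000000 (CPM). Apoe, read as the check of the labels, stood at 5.81 ± 2.95 CPM in APOE-KO and 481 ± 45.7 CPM in wildtype (SD, n = 6 each; log2 fold change -6.43 ± 0.23 SE, adjusted p = 5.25e-16, edgeR's quasi-likelihood test), so every library matched its label. The bead target Itgax (CD11c) was present in every library, at 246 to 355 CPM in APOE-KO and 201 to 365 CPM in wildtype, and so were the dendritic cell genes Flt3, Zbtb46, Xcr1 and Clec9a. The 45S ribosomal RNA gene Rn45s took 11.3% to 21.6% of the counts in APOE-KO and 2.71% to 32.2% in wildtype. Wildtype libraries 1 and 3 hold the ends of that wildtype range. A further fit left out both of them and APOE-KO library 5, whose Rn45s share (13.0%) lay inside the APOE-KO range.

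The members sit in a few places of the genome (GENCODE vM21, an annotation of GRCm38, which mm10 also names). Srebf1 (chr11:60199089-60222581, minus strand), Acaca (chr11:84129672-84401651, plus strand), Acly (chr11:100476353-100528000, minus strand) and Fasn (chr11:120805846-120824547, minus strand) are all on chromosome 11. Scd2 (chr19:44293674-44306864, plus strand) and Scd1 (chr19:44394455-44407879, minus strand) lie in 1 cluster on chromosome 19 with Scd4 between them and Scd3 beside Scd2. Fads2 (chr19:10062765-10101746, minus strand) and Fads1 (chr19:10182888-10196877, plus strand) lie head to head elsewhere on the same chromosome. Elovl5 is at chr9:77917364-77984519 and Elovl6 at chr3:129532355-129638495, both on the plus strand. All are protein-coding genes. The last 1000 bases of Srebf1 overlap Rai1, which is annotated on the other strand, so without knowing whether counting used strand, reads of Srebf1 and Rai1 cannot be told apart there; no other member has such an overlap at its end.

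Because LXR is a known activator of this pathway, the 250 bases before each annotated start were searched for its binding pattern, written here as 2 copies of the half-site GGTNA in the same direction with 5 bases between them, and read on both strands. RefSeq promoter sequences (GRCm38.p6) were at hand for 7 of the 10 members, in 9 windows, with 3 windows for Srebf1; Scd1, Scd2 and Fads1 were not matched. The repeat stood in 2 of the 9 windows, against 0.621% of all 32526 such windows of the genome. One was the window of the innermost Srebf1 start and the other that of Fasn, and both are printed because they show the element in its surroundings, 5′ to 3′ on the strand of the gene, with the repeat in capitals (it reads on the opposite strand).
Srebf1, chr11:60210472-60210721, minus strand: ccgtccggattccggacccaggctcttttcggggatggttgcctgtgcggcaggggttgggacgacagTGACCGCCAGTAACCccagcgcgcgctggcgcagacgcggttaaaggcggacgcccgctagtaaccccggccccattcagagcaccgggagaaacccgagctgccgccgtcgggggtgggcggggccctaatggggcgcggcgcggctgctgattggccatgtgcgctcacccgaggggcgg
Fasn, chr11:120824548-120824797, minus strand: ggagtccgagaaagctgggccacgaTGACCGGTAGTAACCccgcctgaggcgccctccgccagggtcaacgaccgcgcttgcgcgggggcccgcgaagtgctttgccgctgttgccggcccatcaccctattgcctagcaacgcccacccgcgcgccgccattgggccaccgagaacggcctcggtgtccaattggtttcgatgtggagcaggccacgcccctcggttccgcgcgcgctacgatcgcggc
Read along its own strand, with the half-sites in capitals and the spacer in lower case, the repeat can be set beside that of Abca1, the sterol efflux transporter and a classical LXR target. Abca1 was the 1 gene with a match among 8 of the 12 genes of an LXR list that had a window.
Srebf1, chr11:60210639-60210653: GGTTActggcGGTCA
Fasn, chr11:120824758-120824772: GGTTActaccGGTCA
Abca1, chr4:53159948-53159962: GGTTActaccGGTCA
The repeats of Fasn and Abca1 were identical in all 15 bases, and that of Srebf1 had the same half-sites with another spacer. A shorter form of the sterol response element bound by SREBP, TCACNCCAC, was in none of the 9 windows and in 1.05% of all windows. A match is a description of the letters and not a bound site.

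Of the 9 members tested, 2 rose in APOE-KO, Scd1 and Scd2, and 0 fell (edgeR's quasi-likelihood test, Benjamini-Hochberg adjusted p under 0.05). Across all 10714 genes tested, 1.49% passed: 1.08% rose and 0.411% fell. The members were chosen with earlier results of these data known, so their counts beside that share are a description only. DESeq2 and limma-voom gave the same counts, 2 and 0, and at an unadjusted p under 0.05 there was 1 member with a lower level, Fads1. Here and below, such unadjusted counts stand without the share of all genes at that threshold, so no trend is read from them. With the level of epithelial markers as a covariate, 1 member rose, Scd2, and Scd1 did not pass (adjusted p = 0.354). The median log2 fold change of the 9 members was -0.062, beside -0.018 for all genes tested, and 4 members had a positive and 5 a negative value. Both genes that passed encode stearoyl-CoA desaturases.

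**Figure D1:**
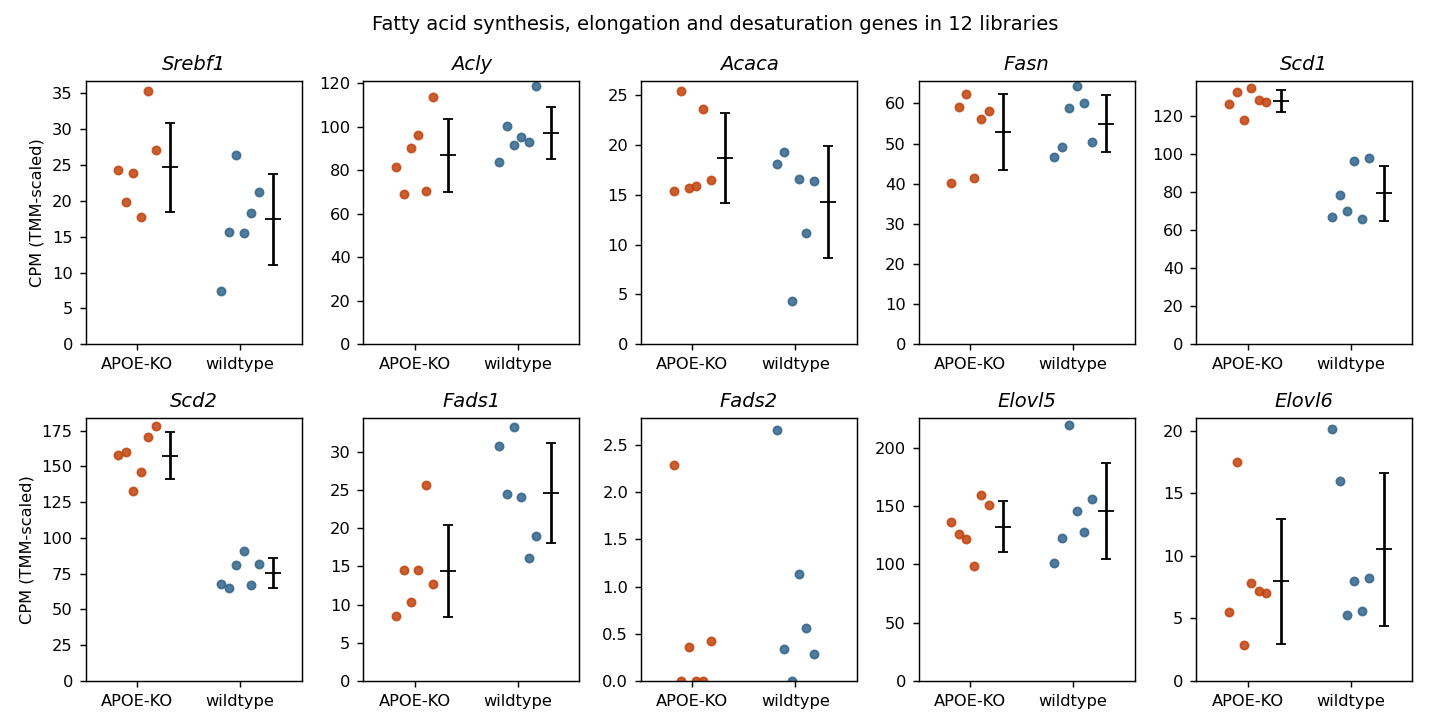
Level of each of the 10 members in CPM (y axis, from 0) in the 6 APOE-KO and 6 wildtype libraries; points are libraries in order of their number, bars the mean ± SD (none for Fads2, which held 0 to 10 reads per library). All APOE-KO points lie above all wildtype points for Scd1 and Scd2, and the groups overlap for the other 8 genes.

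Scd2, the stearoyl-CoA desaturase most known from brain and from lipid synthesis early in life in mice, had the larger change. It stood at 133, 159 and 178 CPM (lowest, median and highest) in APOE-KO and at 65.2, 74.6 and 90.8 CPM in wildtype. Each APOE-KO library was above each wildtype library, as was so for 2 of the 9 tested members, both higher in APOE-KO. Over all genes tested the groups did not overlap for 1.77%, with APOE-KO higher for 1.23% and lower for 0.541%. The mean was 158 ± 16.4 CPM in APOE-KO and 75.7 ± 10.4 CPM in wildtype (SD, n = 6 each), a 2.08-fold rise (log2 fold change 1.06 ± 0.13 SE, adjusted p = 4.12e-05). By log2 fold change it ranked 102 from the top among all genes tested.

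Scd1, the main desaturase of liver and fat and the form most often measured in macrophages, stood at 118, 128 and 135 CPM (lowest, median and highest) in APOE-KO and at 65.9, 74.1 and 97.5 CPM in wildtype. Here too the groups did not overlap. The mean was 128 ± 5.88 CPM in APOE-KO and 79.1 ± 14.4 CPM in wildtype (SD, n = 6 each), a 1.61-fold rise (log2 fold change 0.69 ± 0.14 SE, adjusted p = 0.00720). The 6 APOE-KO libraries lay close together, with a coefficient of variation of 4.60%, against 18.2% in wildtype. For Scd2 the figures were 10.4% and 13.8%. Counting error is part of such a spread, at 331 to 599 Scd1 reads per APOE-KO library, and the difference in spread was not tested. The reads behind Scd1 numbered 2900 over APOE-KO and 1761 over wildtype, and those behind Scd2 3620 and 1713.

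The rise was larger for Scd2 than for Scd1. Inside single libraries Scd2 had 1.09, 1.23 and 1.41 reads per Scd1 read in APOE-KO (lowest, median and highest), and 0.835, 0.980 and 1.16 in wildtype. Scd2 had more reads than Scd1 in 6 of 6 APOE-KO libraries and in 3 of 6 wildtype libraries, and 4 APOE-KO ratios lay above every wildtype ratio. The log2 ratio was 0.30 ± 0.14 in APOE-KO and -0.056 ± 0.18 in wildtype (SD, n = 6 each), a difference of 0.35 (two-sided exact permutation p = 0.00649, or 0.0195 adjusted over the 3 ratios tested). A ratio within a library does not move with the scaling between libraries. In an exact sign-flip test on same-numbered pairs the adjusted p was 0.188, but nothing in the labels pairs the numbers. With 6 pairs and 3 ratios, a single ratio could not by itself reach an adjusted p under 0.05 there, so that test decides nothing.

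**Figure D2:**
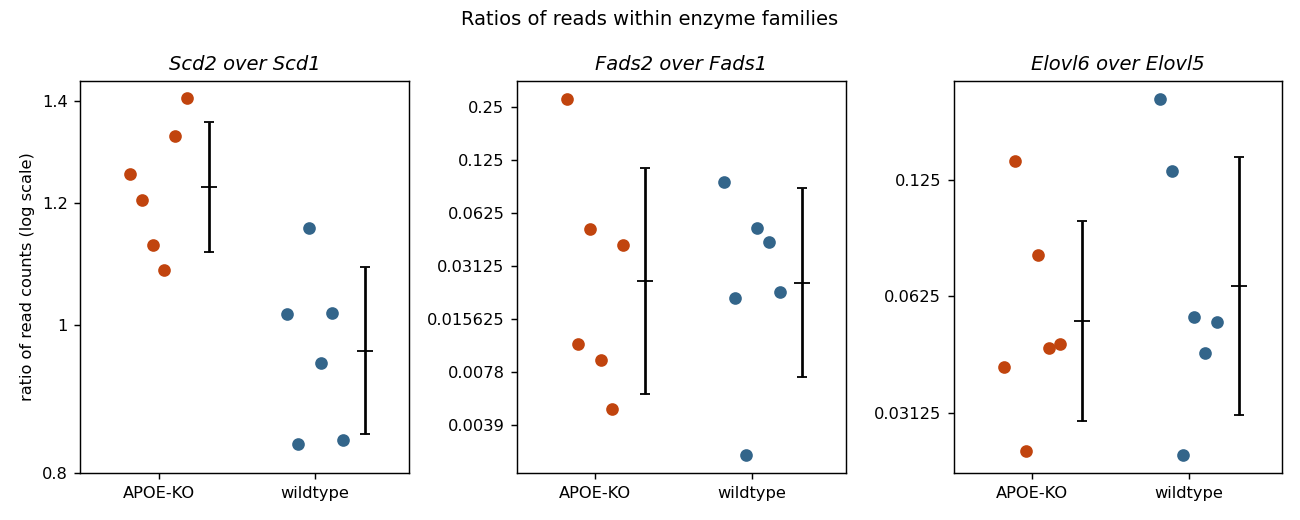
Read-count ratio (y axis, log scale) of Scd2 over Scd1, Fads2 over Fads1 and Elovl6 over Elovl5 in each APOE-KO and wildtype library, with 0.5 added to each count; points are libraries, bars the mean ± SD on the log2 scale. The Scd2 over Scd1 ratio was 1.09 to 1.41 in APOE-KO and 0.835 to 1.16 in wildtype, and the genotypes overlap in the other ratios.

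The Scd genes are close copies, which bears on how reads were assigned. In annotated transcripts the longest run of bases shared by Scd1 and Scd2 was 147, but in the last 500 bases, where a library of 3′ ends has its reads, it was 14. The other copies, Scd3 and Scd4, were below the filter on low counts and were looked at after their values were seen. Scd3 held 18 reads over the APOE-KO libraries, 0 to 7 per library, and 1 read over wildtype. Scd4 held 40 reads over APOE-KO, 1 to 15 per library, and 24 over wildtype, 0 to 13 per library. Nearly all reads of the cluster thus belonged to Scd1 and Scd2 in both genotypes.

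Markers of other states and cell types moved with genotype as well. The 6 markers of mature dendritic cells summed to 2579.5 to 3684 CPM in APOE-KO and 1851 to 2579.6 CPM in wildtype, and 5 of 6 rose. APOE-KO library 2 and wildtype library 2 met at the border, both near 2580 CPM of these markers, and there Scd1 stood at 133 CPM in APOE-KO and 78.1 CPM in wildtype, and Scd2 at 159.9 and 65.2 CPM in the same order. The 6 markers of plasmacytoid dendritic cells, 4 of which fell, summed to 377 to 527 CPM in APOE-KO and 548 to 1449 CPM in wildtype, with no overlap. The 13 epithelial markers, 1 of whose 6 tested members fell (2 in DESeq2, 3 in limma-voom), summed to 8.90 to 97.8 CPM in APOE-KO and 82.2 to 148 CPM in wildtype. Krt8 was at 0 in 4, Krt19 in 3 and Krt18 in 2 of the 6 APOE-KO libraries and in no wildtype library. Epcam and Cdh1 had reads in every library of both genotypes, but fewer per library in APOE-KO on average. Cdh1, the 1 that fell, had a mean of 16.4 CPM in APOE-KO and 39.0 CPM in wildtype (log2 fold change -1.26, adjusted p = 0.0172, edgeR's quasi-likelihood test). Epcam had 6.21 and 12.5 CPM in the same order and did not pass (adjusted p = 0.332, same test). APOE-KO library 4, the 1 APOE-KO library with an epithelial sum inside the wildtype range (97.8 CPM), had 135 CPM of Scd1 and 146 CPM of Scd2, above every wildtype library for both genes. Such single libraries, picked by their marker sums, are a description only. For the plasmacytoid sums no libraries met. The part of cell composition in the Scd levels was not tested.

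With the mean of the tested epithelial markers as a covariate, the log2 fold change of Scd1 was 0.68 and its call ended (adjusted p = 0.354), while Scd2 still passed at 0.92 (adjusted p = 0.0474). That covariate itself differed with genotype, with a mean log2 CPM of 1.48 in APOE-KO and 3.63 in wildtype. The fit can therefore separate it from genotype only poorly. The 10 adipocyte markers, which matter because fat cells carry much of this pathway, summed to 22.6 to 84.5 CPM in APOE-KO and 23.6 to 132 CPM in wildtype, most of it Fabp4, which endothelial cells also express. Adipoq held 20 reads over APOE-KO and 18 over wildtype, Plin1 0 and 14, and Lep none in any library. In the same order Car3 held 8 and 67 reads, Cidec 3 and 17, Cfd 26 and 34, and Retn 19 and 21. Pck1 held 11 and 6 and Adrb3 15 and 11. All of these were below the filter on low counts and were not tested. The 11 macrophage markers summed to 868 to 1161 CPM in APOE-KO and 1039.6 to 1308 CPM in wildtype, with 1 gene higher and 2 lower. Of the conventional dendritic, B cell, T cell, endothelial and stromal lists none had a gene that passed in edgeR, DESeq2 or limma-voom. At an unadjusted p under 0.05 there were 2 higher and 5 lower genes in them together, from which no trend is read. In bulk RNA like this, a change in the share of a cell type and a change of RNA per cell cannot be told apart, and the part of these markers in the Scd result was not tested beyond the values given.

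Srebf1, the regulator of the group, stood at 17.7, 24.1 and 35.3 CPM (lowest, median and highest) in APOE-KO and at 7.44, 17.0 and 26.4 CPM in wildtype. All 6 APOE-KO libraries were above the wildtype median and 2 were above every wildtype library, but the groups overlapped. The mean was 24.7 ± 6.20 CPM in APOE-KO and 17.4 ± 6.38 CPM in wildtype (SD, n = 6 each), and the difference did not pass (log2 fold change 0.48 ± 0.26 SE, adjusted p = 0.474; 95% interval of the fold 0.964 to 2.02). That interval holds both no change and the fold of Scd1, and with the epithelial covariate the log2 fold change was 0.24. The lowest library, wildtype 1, held 14 Srebf1 reads. A library of 3′ ends does not separate the 2 main forms of SREBP1, which differ in their first exon.

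The 3 genes of synthesis itself gave no call, and their levels overlapped between the genotypes. Acly stood at 69.2, 85.8 and 114 CPM (lowest, median and highest) in APOE-KO and at 83.9, 94.1 and 118 CPM in wildtype. Its mean was 86.8 ± 16.9 CPM in APOE-KO and 97.1 ± 11.8 CPM in wildtype (SD, n = 6 each; log2 fold change -0.16 ± 0.15 SE, adjusted p = 0.744; 95% interval of the fold 0.724 to 1.10). Fasn stood at 40.3, 57.1 and 62.3 CPM (lowest, median and highest) in APOE-KO and at 46.7, 54.6 and 64.4 CPM in wildtype. Its mean was 52.9 ± 9.53 CPM in APOE-KO and 54.9 ± 7.08 CPM in wildtype (SD, n = 6 each; log2 fold change -0.062 ± 0.16 SE, adjusted p = 0.932; 95% interval of the fold 0.761 to 1.21). The intervals of Acly and Fasn therefore end below the fold seen for Scd1 (1.61), although the difference between these genes and Scd1 was not itself tested. The sign of the Fasn value, close to 0, depended on single libraries.

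Acaca, the carboxylase, was read from fewer counts, 420 over APOE-KO and 287 over wildtype. It stood at 15.3, 16.2 and 25.4 CPM (lowest, median and highest) in APOE-KO and at 4.37, 16.5 and 19.3 CPM in wildtype, and the lowest wildtype value was that of library 3. APOE-KO libraries 2 and 5 were above every wildtype library and the other 4 lay inside the wildtype range. The mean was 18.7 ± 4.52 CPM in APOE-KO and 14.3 ± 5.62 CPM in wildtype (SD, n = 6 each; log2 fold change 0.40 ± 0.30 SE, adjusted p = 0.654; 95% interval of the fold 0.858 to 2.04), an interval that holds both no change and the fold of Scd1. Its log2 fold change was 0.66 in limma-voom, 0.21 without wildtype library 3, and -0.00595 with the epithelial covariate, which turned its sign.

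Neither gene of the front-end desaturases passed. Fads1 stood at 8.47, 13.6 and 25.6 CPM (lowest, median and highest) in APOE-KO and at 16.1, 24.3 and 33.2 CPM in wildtype. In APOE-KO, 5 of 6 libraries were below every wildtype library, and library 5, at 25.6 CPM, was the exception. The mean was 14.4 ± 6.01 CPM in APOE-KO and 24.6 ± 6.58 CPM in wildtype (SD, n = 6 each; log2 fold change -0.77 ± 0.27 SE, adjusted p = 0.199), and the unadjusted p was 0.00892. Without APOE-KO library 5 the log2 fold change was -1.02 and passed (adjusted p = 0.0449), and over the other fits without 1 library it did not pass. Among all genes tested, Fads1 ranked 10347 of 10714 by log2 fold change, counted from the largest rise.

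Fads2, which acts before Fads1 in the same route, was almost absent. It held 13 reads over the 6 APOE-KO libraries, 10 of them in library 1, and 14 over the 6 wildtype libraries, 0 to 5 per library. It had no read in 3 APOE-KO libraries and 1 wildtype library. The neighbouring Fads3, also below the filter and chosen after its values were seen, held 15 reads over APOE-KO and 91 over wildtype, up to 11 and up to 32 per library. The Fads2 over Fads1 ratio gave no difference that could be read (two-sided exact permutation p = 0.985, adjusted p = 0.985), since it rests on these few Fads2 reads.

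The elongases did not pass either. Elovl5, the elongase of polyunsaturated chains, had the highest mean level of the members in wildtype and stood at 98.9, 131 and 159 CPM (lowest, median and highest) in APOE-KO and at 101, 137 and 219.5 CPM in wildtype; wildtype library 3 held the highest value. Its mean was 132 ± 21.7 CPM in APOE-KO and 145 ± 41.0 CPM in wildtype (SD, n = 6 each; log2 fold change -0.14 ± 0.16 SE, adjusted p = 0.810; 95% interval of the fold 0.716 to 1.15). Elovl6, which lengthens palmitate to stearate, the substrate of the Scd enzymes, stood at 2.85, 7.10 and 17.5 CPM (lowest, median and highest) in APOE-KO and at 5.25, 8.09 and 20.2 CPM in wildtype. Its mean was 7.97 ± 4.98 CPM in APOE-KO and 10.5 ± 6.12 CPM in wildtype (SD, n = 6 each; log2 fold change -0.37 ± 0.43 SE, adjusted p = 0.810; 95% interval of the fold 0.419 to 1.43). APOE-KO library 2 and wildtype libraries 1 and 2 held 17.5 CPM in the first case and 20.2 and 16.0 CPM in the others, and every other library was at 8.22 CPM or less. Without 1 library the log2 fold change of Elovl6 ran from -0.75 (without APOE-KO library 2) to -0.10 (without wildtype library 1), with no call. The Elovl6 over Elovl5 ratio overlapped between the genotypes and did not pass (log2 difference -0.30, two-sided exact permutation p = 0.602, adjusted p = 0.903).

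In a library of 3′ ends a transcript gives reads at its end only, so CPM does not grow with transcript length and levels of different genes can be set in order, though how well each end is captured may differ. In APOE-KO the mean levels ran from Scd2 through Elovl5, Scd1, Acly, Fasn, Srebf1, Acaca, Fads1 and Elovl6 to Fads2. In wildtype they ran from Elovl5 through Acly, Scd1, Scd2, Fasn, Fads1, Srebf1, Acaca and Elovl6 to Fads2. Scd2 was above Elovl5 in 6 of 6 APOE-KO libraries and in 0 of 6 wildtype libraries, and above Acly in 6 of 6 and 0 of 6. Scd1 was above Acly in 6 of 6 APOE-KO and 1 of 6 wildtype libraries. Between Scd1 and Elovl5 in APOE-KO, and between Scd1 and Scd2 in wildtype, the order changed from library to library.

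Other genes of the pathway were read from 6 lists with 62 genes in all, of which 44 were tested. The only calls in them were in the LXR list. Among 8 tested partners of synthesis (citrate and acetate supply, mitochondrial synthesis, regulators) 0 rose and 0 fell in edgeR's test, as in DESeq2 and limma-voom, and 1 had an unadjusted p under 0.05. That was Acss2, which makes acetyl-CoA from acetate, with 190 reads over APOE-KO and 90 over wildtype and groups that did not overlap (log2 fold change 0.92 ± 0.44 SE, adjusted p = 0.408). Oxsm, a synthase of the mitochondrial pathway, had 5.88 ± 2.72 CPM in APOE-KO and 9.78 ± 3.80 CPM in wildtype (adjusted p = 0.511). Thrsp, a lipogenic regulator of fat and mammary gland, was below the filter with 13 reads over APOE-KO and 73 over wildtype, and was chosen after its values were seen.

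The rest of the elongation cycle (6 genes tested) and the other desaturases with their cytochrome b5 electron donors (5 tested) had 0 calls in either direction by any of the 3 tools and 0 genes with an unadjusted p under 0.05. Tecr, the last reductase of the cycle, stood at 51.0 ± 6.63 CPM in APOE-KO and 58.9 ± 6.10 CPM in wildtype (adjusted p = 0.622), and Hacd4, a dehydratase, at 7.70 ± 2.72 CPM in APOE-KO and 5.62 ± 1.96 CPM in wildtype (adjusted p = 0.737). The reductase Cyb5r3, which passes electrons to cytochrome b5 and on to Scd, stood at 106 ± 14.3 CPM in APOE-KO and 89.9 ± 15.5 CPM in wildtype (adjusted p = 0.556), and Degs1, the ceramide desaturase, at 175 ± 21.5 CPM in APOE-KO and 158 ± 34.8 CPM in wildtype (adjusted p = 0.771). Of the 7 tested genes that form acyl-CoA or place it in phospholipids none passed in either direction by any tool, and 1 had an unadjusted p under 0.05. This was Acsl5, an acyl-CoA synthetase, at 84.0 ± 12.8 CPM in APOE-KO and 63.2 ± 13.1 CPM in wildtype (adjusted p = 0.280). Lpcat3, which puts polyunsaturated chains into phospholipids and is an LXR target, stood at 24.8 ± 7.95 CPM in APOE-KO and 19.9 ± 5.98 CPM in wildtype (adjusted p = 0.676).

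Of SREBP processing, 6 genes were listed (Srebf2 and those that hold back, carry or cleave SREBP precursors). All 6 had a negative log2 fold change (median -0.27), while over all genes tested 47.2% had a positive and the rest a negative value. Of the 6, 0 passed in edgeR, DESeq2 or limma-voom, and 3 had an unadjusted p under 0.05. The share of all genes at that unadjusted threshold is not given here, so no trend is read from the 3. Srebf2, the sister gene of Srebf1 that serves cholesterol synthesis, stood at 27.4, 33.5 and 56.5 CPM (lowest, median and highest) in APOE-KO and at 36.9, 55.6 and 71.5 CPM in wildtype. The APOE-KO median was below every wildtype library, while APOE-KO libraries 4 and 5 lay inside the wildtype range (log2 fold change -0.58 ± 0.20 SE, adjusted p = 0.176). Without library 5 Srebf2 passed, at -0.75 (adjusted p = 0.0434). Insig2, which retains SREBP in the endoplasmic reticulum, stood at 19.2 ± 4.65 CPM in APOE-KO and 28.9 ± 6.86 CPM in wildtype (adjusted p = 0.242).

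In the LXR list 6 of 12 tested genes rose and 0 fell, the same in DESeq2 and limma-voom, and the median log2 fold change was 0.55. That list was chosen with earlier results of these data known, so its counts and median are a description only. Nr1h3, which encodes LXR alpha and is itself an LXR target in macrophages, stood at 62.0, 66.3 and 128 CPM (lowest, median and highest) in APOE-KO and at 18.6, 35.6 and 55.1 CPM in wildtype, with log2 fold change 1.01 ± 0.22 SE, adjusted p = 0.0160. Its call ended in the fit that left out 3 libraries together (0.64, adjusted p = 0.0592) and with the epithelial covariate (0.82, adjusted p = 0.849). With that covariate Apoc1 (log2 fold change 2.15, adjusted p = 0.107) and Arl4c (0.65, adjusted p = 0.316) kept values close to those without it but did not pass. The covariate itself differed with genotype, as given above. Nr1h2, which encodes LXR beta, and the partner genes Rxra, Rxrb and Rxrg did not pass. Neither did the listed targets Mylip (log2 fold change 0.50, adjusted p = 0.199 in edgeR's test) and Smpdl3a (0.26, adjusted p = 0.752). Abca1 and Abcg1, the efflux transporters, had log2 fold changes of 1.36 ± 0.16 and 1.18 ± 0.17 (SE), Lpl, lipoprotein lipase, of 1.66 ± 0.19, Apoc1, an apolipoprotein, of 2.29 ± 0.38, and Arl4c, a small GTPase, of 0.61 ± 0.13. These are the same libraries as for the Scd genes, so the lists are not independent. Abca1, with the same 15-base repeat in its window as Fasn, rose, and Fasn stood at -0.062 ± 0.16 (SE) on the log2 scale. Whether LXR acts through these repeats was not tested, and Scd1 and Scd2 had no window to search.

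**Figure D3:**
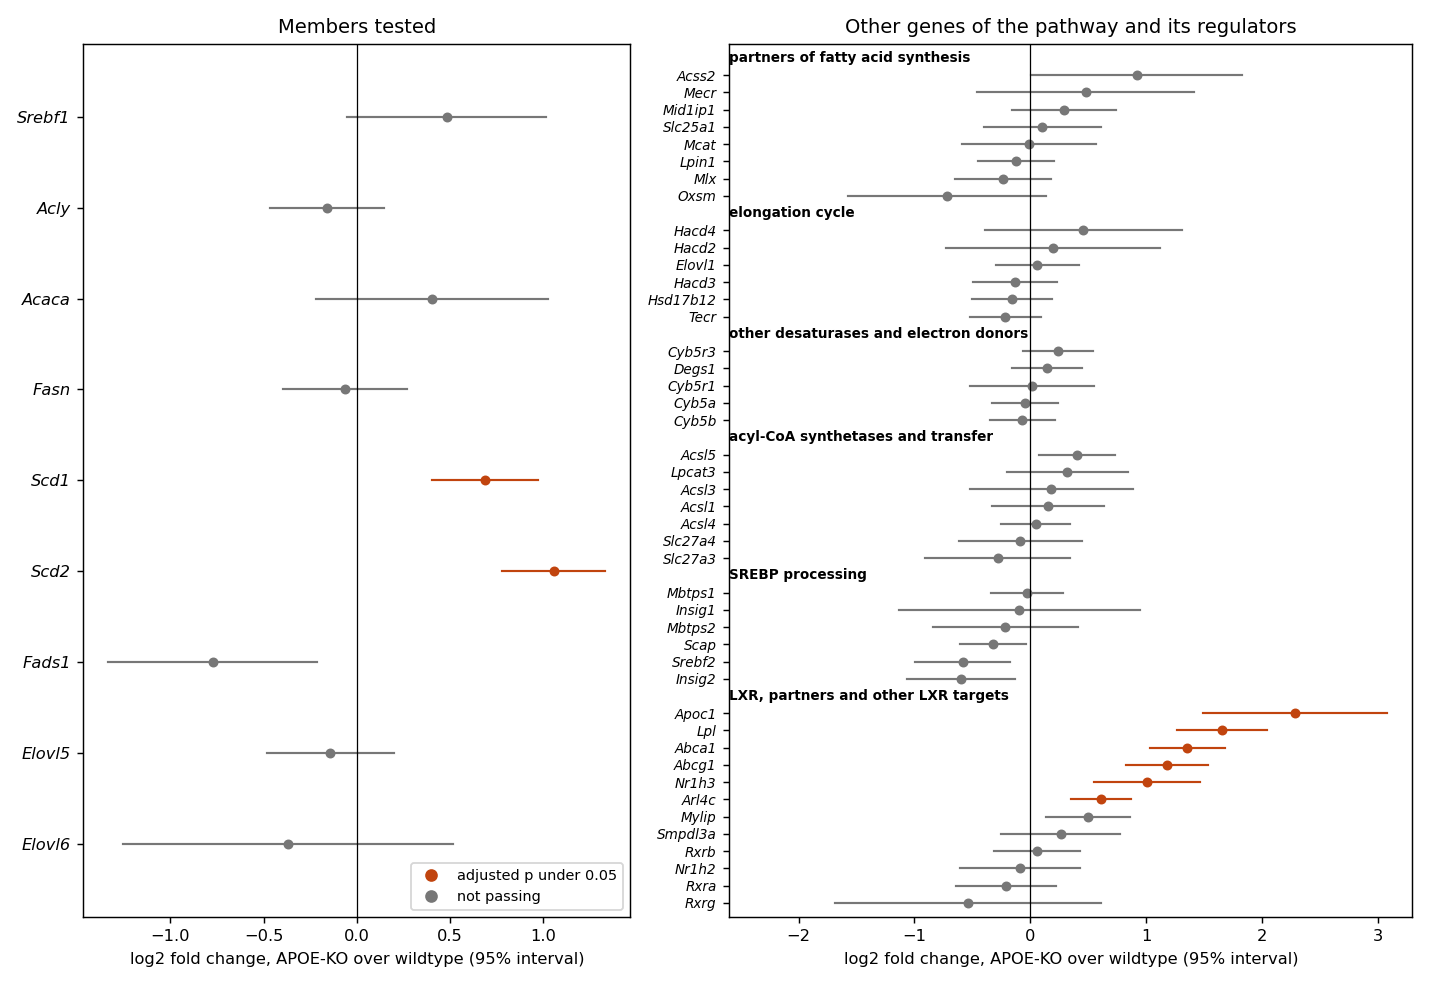
Log2 fold change of APOE-KO over wildtype (x axis) with its 95% interval for the 9 tested members (left) and the 44 tested genes of 6 lists of the pathway and its regulators (right); coloured points passed an adjusted p of 0.05. Scd1 and Scd2 on the left and 6 LXR genes on the right passed, and all 6 genes of SREBP processing lie left of 0 without passing.

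Whether the members followed Srebf1 from library to library was read on log2 CPM with each genotype's mean taken out, so that the difference between genotypes plays no part. Of 8 members compared over the 12 libraries, Elovl5 followed it (Pearson r = 0.876, permutation p = 0.00146, adjusted p = 0.0117 over the 8; Spearman rho = 0.853, permutation p = 0.00121, adjusted p = 0.00968). The ends of the relation were wildtype libraries 1 and 3, which also have the highest and the lowest Rn45s share (32.2% and 2.71%) and the lowest and highest totals; the part of Rn45s or depth in it was not tested. Without these 2 libraries, the farthest from the median of Srebf1, r was 0.792 (permutation p = 0.0140, adjusted p = 0.112), so the relation no longer passed after adjustment over the 8 and rests in part on them. For Scd2 r was 0.440 and rho 0.364 (permutation p = 0.209 and 0.279, adjusted p = 0.387 and 0.559), 0.322 without those libraries. For Scd1 r was 0.162 and rho -0.0979 (permutation p = 0.757 and 0.790, adjusted p = 0.865 and 0.906). Elovl6 had a negative r of -0.604 and rho of -0.552 (permutation p = 0.0411 and 0.0792, adjusted p = 0.165 and 0.317). Acly, Acaca, Fasn and Fads1 had an adjusted permutation p of at least 0.387.

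**Figure D4:**
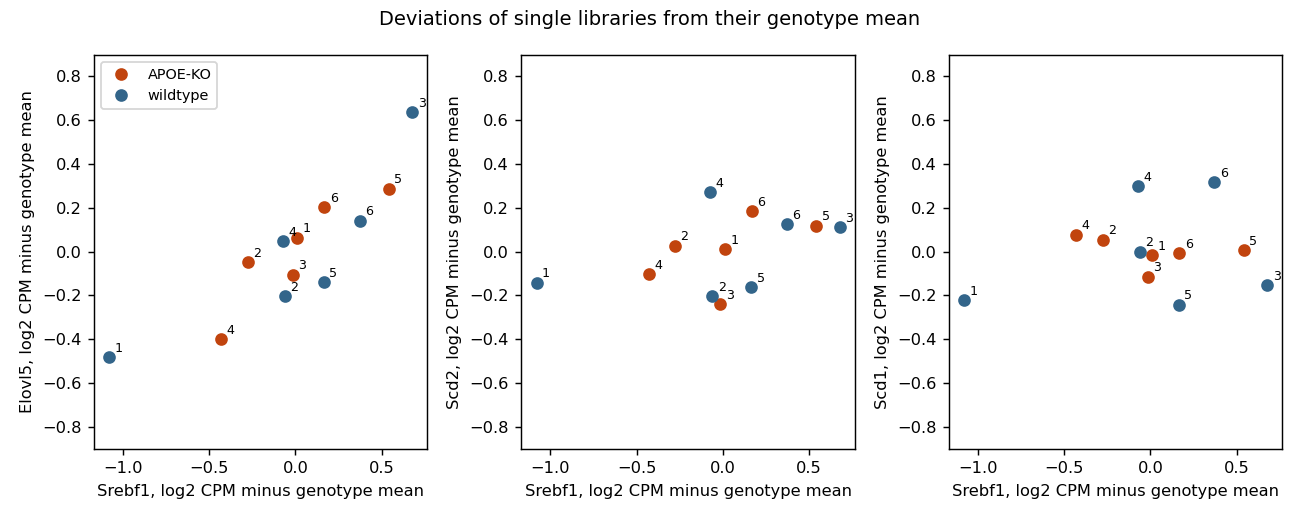
Deviation of each library from its genotype mean on the log2 CPM scale, Srebf1 on the x axis and Elovl5, Scd2 or Scd1 on the y axis; points are libraries, labelled by their number. Elovl5 lies along a rising line (r = 0.876) with wildtype libraries 1 and 3 at its ends, and Scd1 shows no such line (r = 0.162).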

How the data were processed

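Per the labels' protocols, libraries were made with a Lexogen 3′ FWD kit, which reads RNA from its 3′ end. The deposited table holds read counts per gene symbol, not normalised; the submitters' processing notes name STAR 2.7.8a, featureCounts 1.5.1, R 4.1.0, DESeq2 1.4 and mm10. The annotation, strand setting, treatment of reads with several matches and molecular identifiers have no entry in the labels or headers. Floors of 3 counts cover counting error only. No column was left unused.

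The counts were fitted with edgeR 4.0.16 under R 4.3.3: filterByExpr by genotype (minimum count 10; 10714 genes kept), TMM factors, glmQLFit and glmQLFTest on genotype, Benjamini-Hochberg over all genes kept, threshold 0.05. CPM uses TMM-scaled totals; SE values were taken as |log2 fold change| divided by the root of F; intervals are 95% and unadjusted. Ratios used exact permutation over 924 assignments (smallest p 0.00216) and correlations 100000 permutations within genotype. Counts of genes at an unadjusted p under 0.05 were not set beside the share of all genes at that threshold. Replicates differed by more than sampling noise. Deviations of same-numbered libraries from their group means correlated at r from -0.077 to 0.0185, so the numbers were not read as pairs. Members and lists were chosen with earlier results of these data known. Named genes are the members, Apoe, and from each pathway list every passing gene and the 2 with the smallest p; genes from outside it are marked in the text as chosen after their values were seen, besides marker genes and members of lists said not to pass. Alternatives were other size factors, filters, tools (DESeq2 1.42.0, limma 3.58.1), covariates, a replicate block and fits without libraries. A planned adipocyte covariate was not run, since 1 of its markers was tested.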

Additional observations from a re-analysis of the deposited data

Results flagged for a closer look

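Of 26 groups of 6 libraries checked (10 members and 3 ratios in each genotype), 3 had 1 library far from the others by Dixon's test; chance gives about 1 in 20. In APOE-KO, library 5 held 25.6 CPM of Fads1, with the next library at 14.5 CPM, and it is also the library without which Fads1 passed. In APOE-KO, library 1 held 2.29 CPM of Fads2, with the next at 0.424 CPM; this is 10 reads against 0 to 2. In APOE-KO, library 2 held 17.5 CPM of Elovl6, with the next at 7.79 CPM. Wildtype libraries 1 and 2 held 20.2 and 16.0 CPM of Elovl6.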

How the results depend on the processing

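Scd2 passed in all 25 alternative fits (log2 fold change 0.92 to 1.13, adjusted p up to 0.0474) and Scd1 in 24 (0.59 to 0.79), the epithelial covariate being the exception. With that covariate 1 member and 3 other pathway genes rose, against 2 and 6, and over all genes 24 rose and 8 fell, against 116 and 44. Genes called higher and lower numbered 182 and 90 with DESeq2, 165 and 68 without a filter, and 199 and 136 with the Rn45s share as a covariate. With the replicate block they were 70 and 30, and Scd1 and Scd2 still passed. The numbers gave no sign of pairing (no APOE-KO library correlated best with its own number). The Scd2 over Scd1 difference of 0.35 kept its size, with an adjusted p of 0.188 in the sign-flip test. As said above, a single ratio could not by itself pass that test. Fits without 1 library gave 72 to 166 higher (fewest without APOE-KO library 3) and 27 to 64 lower genes (fewest without APOE-KO library 3 or wildtype library 5, 29 without APOE-KO library 6), 2 members higher in each, 0 to 1 member lower and 0 to 1 pathway gene lower (Fads1 and Srebf2, without APOE-KO library 5). The cause of these changes was not tested.

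Signs turned for 2 values near 0, Fasn (-0.11 to 0.00716 without 1 library) and Elovl5 (-0.22 to 0.0280; 0.00744 with the Rn45s covariate). The epithelial covariate turned 2 larger ones, Acaca (-0.00595, against 0.40) and Hacd4 (-0.22, against 0.46). Without 1 library the log2 difference of Fads2 over Fads1 ran from -0.65 to 0.52 and that of Elovl6 over Elovl5 from -0.59 to 0.0239. Without wildtype libraries 1 and 3, r with Srebf1 was 0.136 for Acaca, -0.00595 for Scd1 and 0.792 for Elovl5. Size factors changed no member's call or sign. Fads2, with 13 reads over APOE-KO and 14 over wildtype, was too thin to test at this depth.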
